A study of Mus musculus with 12 samples.

Results

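The subject is the spinal cord of Ddx20 cKO mice 4 weeks after tamoxifen, set against control mice of the same time. The comparison took 6 of the series' 12 libraries: 3 labelled control and 3 labelled Ddx20 cKO, each from 1 mouse, and all genes of that time's count table, fitted on its own. The cKO mice came from a cross of mice whose Ddx20 alleles are flanked by loxP sites with Plp-CreER mice, in which the Plp promoter drives a Cre recombinase that acts after tamoxifen. The labels give neither the alleles of the control mice nor the age or sex of any mouse, and they count time from tamoxifen in both groups. The other 6 libraries are the same groups at 4.5 weeks and are used here only to look up genes found at 4 weeks. The Plp promoter is active in oligodendrocytes and, outside the central nervous system, in Schwann cells. Whole spinal cord was sequenced, so in what follows fewer cells of a type and less RNA per cell cannot be told apart.

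Ddx20 (also called Gemin3) is an RNA helicase of the SMN complex, which loads Sm proteins onto the small nuclear RNAs of the spliceosome. Oligodendrocytes make the myelin sheath around axons of the central nervous system and depend on a large output of lipid and membrane protein. Cells under genotoxic or splicing stress can stabilise the transcription factor p53, and injured myelinating cells are cleared by microglia, the resident phagocytes of the cord.

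Libraries held 33104560 to 40943445 estimated counts and 23262 to 24256 detected genes, with 5.70% to 7.34% of counts from mitochondrial genes. Ddx20 itself was measured at 11.2, 9.93 and 11.2 CPM (counts scaled to the size and composition of the library) in the controls and at 10.4, 11.2 and 10.04 CPM in the libraries labelled cKO. The groups overlapped: the log2 fold change was -0.03 ± 0.11 (SE), with an edgeR adjusted p of 0.84 and an exact permutation p of 0.80, where the smallest possible p is 0.10. A count per gene does not show whether the deleted stretch is present, so the label of the cKO libraries was not checked by it, and "cKO" below means the libraries so labelled. Xist, the noncoding RNA made from an inactive X chromosome, gave 2, 0 and 2 counts in the controls, 13563 in cKO1, 14773 in cKO2 and 3 in cKO3, so sex is unevenly spread over the groups while cKO1 and cKO2 share it. Genes of the X chromosome (576 tested, 68 higher and 137 lower), of the Y chromosome (8 tested, none called) and of the mitochondrion (15 tested, none called), and 384 genes with no chromosome in the annotation used, were set aside, which left 17060 autosomal genes. Markers of spinal cord cells were present in the 6 libraries: the summed level of 25 tested neuron genes lay between 12806 and 16142 CPM.

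At 4 weeks 3014 autosomal genes rose (17.7% of those tested) and 2719 fell (15.9%), by edgeR's quasi-likelihood test at an adjusted p below 0.05. The rises were larger than the falls: the median change of the risen genes was 0.62 in cKO1, 0.94 in cKO2 and 0.85 in cKO3 on the log2 scale, against -0.33, -0.48 and -0.45 for the fallen genes. Of the called genes 2962 rises (17.4% of tested genes) and 2704 falls (15.8%) also had each of the 3 cKO libraries outside the range of the 3 controls. Without regard to the test, that separation was met above the controls by 24.6% of tested genes and below them by 24.4%, so separation alone says little about a single gene. Among the 52 rises that did not separate, the library inside the control range was cKO1 in 49, cKO2 in 1 and cKO3 in 2; among 15 such falls it was cKO1 in 12, cKO2 in 2 and cKO3 in 1. The number of falls depended on single libraries: it was 1628 without control 1, 1800 without control 3, 1724 without cKO2 and 1614 without cKO3, and in each of these fits every called fall also separated. With a term for Xist in the model 1648 rises and 1027 falls were called. Of the called genes 5319 of 5733 (33.6% of tested genes were called in either direction) stand in none of the 24 lists of markers and known responses used here. Those lists hold only 603 of the 17060 tested genes, so most called genes would stand outside them whatever the response.

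The library cKO1 lay nearer to the controls than cKO2 and cKO3 did. Over tested autosomal genes the root mean square difference of log2 CPM was 0.689 to 0.733 between cKO1 and a control, 0.953 to 0.996 for cKO2 and 0.899 to 0.969 for cKO3. Controls differed from each other by 0.403 to 0.425. Between cKO libraries the difference was 0.567 for cKO1 and cKO2, 0.544 for cKO1 and cKO3, and 0.475 for cKO2 and cKO3. On the first principal component, which held 70.8% of the variance, the controls stood at -49.3, -48.5 and -57.2, cKO1 at 24.8, cKO2 at 68.9 and cKO3 at 61.3. The second component held 8.94%.

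**Figure D1:**
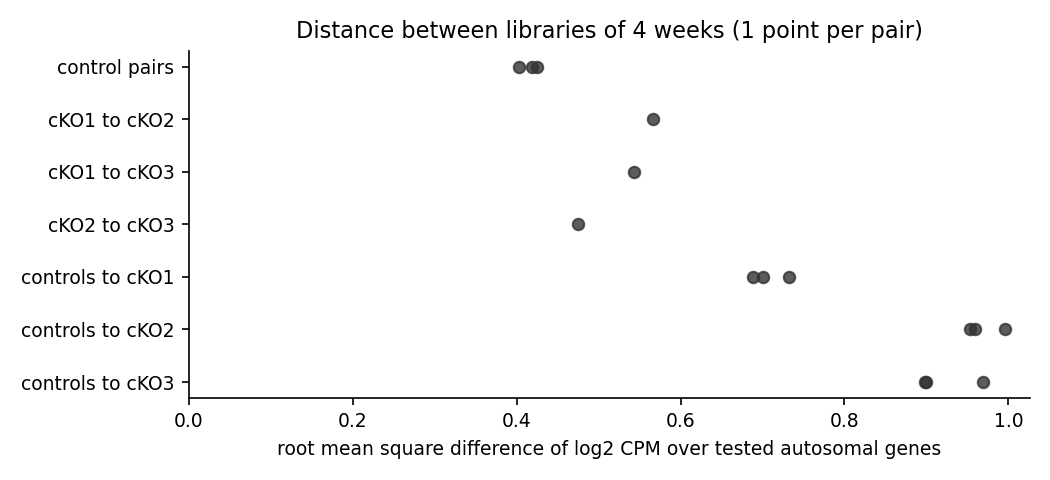
Root mean square difference of log2 CPM over the tested autosomal genes (x axis) for each pair of the 6 libraries, grouped by kind of pair (y axis, 1 point per pair). Pairs of a control with cKO1 lie at 0.689 to 0.733, between the control pairs and the pairs of a control with cKO2 or cKO3.

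For most called genes cKO1 moved the same way as the others and less far. The median share of the mean change that a library reached was 0.815 in cKO1, 1.13 in cKO2 and 1.07 in cKO3 for risen genes, and 0.790, 1.15 and 1.06 for fallen genes. In 2194 of the 3014 rises (72.8%) and 1951 of the 2719 falls (71.8%) cKO1 had the smallest change of the 3 libraries, while in 369 rises and 240 falls it had the largest. When each cKO library was fitted alone against the 3 controls, which compares libraries rather than genotypes, cKO1 gave 1325 rises (7.77% of tested genes) and 644 falls (3.77%), cKO2 gave 2678 (15.7%) and 2109 (12.4%), and cKO3 gave 2375 (13.9%) and 1813 (10.6%). Xist counts were high in cKO1 and cKO2, and that of cKO3 was like those of the controls. The part of sex in these numbers was not tested.

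In these single-library fits 1216 genes were higher in each of the 3 libraries (7.13% of tested genes) and 580 were lower in each (3.4%). The latter number was 1031 without control 3. All 1216 were among the 3014 rises, where they made up 40.3%, and 578 were among the 2719 falls (21.3%). A further 859 rises (28.5%) and 761 falls (28.0%) were called in cKO2 alone and in cKO3 alone and not in cKO1. By size, 871 called genes were at least 2-fold above the control mean in each cKO library (5.11% of tested genes) and 133 were at least 2-fold below it (0.78%).

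The lag of cKO1 is given next by gene group, with no test between groups. Counts of called members stand beside 17.7% higher and 15.9% lower over all tested genes. Among 52 tested p53 targets 42 rose and 1 fell (Rrm2b, a ribonucleotide reductase subunit, -0.42, a call lost with a term for Xist, without control 3 and without cKO3), and the median change of the risen members was 1.84 in cKO1, 2.14 in cKO2 and 2.13 in cKO3. Of 80 tested interferon-stimulated genes 75 rose and none fell, with a median change of 0.83, 3.47 and 2.82. In 75 of these 75 cKO1 had the smallest change, beside 72.8% of all rises. Of 67 genes of DNA replication and mitosis 52 rose, by 0.72, 2.18 and 1.99, and 2 fell. The median range over the cKO libraries of the risen members was 0.28 for p53 targets, 2.56 for interferon genes and 1.34 for proliferation genes on the log2 scale. Of the 42 risen p53 targets 37 were called in each cKO library alone, against 40 of the 75 interferon genes and 10 of the 52 proliferation genes.

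Other known responses are given with the same 3 medians, beside 17.7% higher and 15.9% lower over all tested genes. Markers of microglia and macrophages rose in 34 of 43 (1.62, 2.12 and 2.12 in cKO1, cKO2 and cKO3) and cytokine and chemokine genes in 18 of 22 (2.30, 4.82 and 3.87). Antigen presentation genes rose in 17 of 20, by 0.59, 2.28 and 1.72. Mature oligodendrocyte markers fell in 29 of 32, by -0.81, -1.21 and -1.08, and their summed level was 32897 to 36190 CPM in the controls and 17516 to 22402 CPM in the cKO libraries. Cholesterol synthesis genes fell in 21 of 23 and were near level over the libraries, at -0.74, -0.81 and -0.80. Of 30 astrocyte markers 15 fell (-0.67, -1.53 and -1.21) and 9 rose. These lists were chosen with earlier results of these libraries known, so their direction is no independent evidence.

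The members with the smallest p show these medians at the level of genes. Pidd1, a p53 target that scaffolds a caspase-activating complex, went from 2.24, 2.84 and 2.13 CPM in the controls to 47.3, 54.7 and 58.05 CPM in cKO1, cKO2 and cKO3 (4.48 ± 0.14), and all cKO libraries were far above all controls. In the interferon list Tap1, a peptide transporter of antigen presentation that shares exon sequence with Psmb9, went from 5.94, 5.402 and 4.17 CPM to 45.5, 93.3 and 77.01 CPM (3.80 ± 0.27). Nlrc5, an activator of MHC class I genes, went from 1.74, 0.968 and 1.35 CPM to 18.1, 61.1 and 42.3 CPM (4.89 ± 0.47), with cKO1 lowest of the cKO libraries in both, and both also lead the antigen presentation list. Among proliferation genes Spc25, of the kinetochore, went from 0.781 to 1.18 CPM to 6.73, 12.5 and 13.2 CPM (3.45 ± 0.30), and the replication helicase gene Mcm7 from 13.2 to 14.8 CPM to 27.5, 32.02 and 34.1 CPM (1.14 ± 0.10). The 2 falls of that list were Anln (-1.16 ± 0.20), which binds septins and actin, and Stmn1 (-0.34 ± 0.07), a tubulin-binding protein whose call was lost with a term for Xist.

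Among markers of microglia and macrophages the lipase gene Lpl went from 17.5, 14.7 and 14.5 CPM to 76.4, 82.03 and 90.2 CPM (2.41 ± 0.10) and the lysosomal protease gene Ctsd from 530.5 to 549 CPM to 1925 to 2413 CPM (2.02 ± 0.09). The fall in that list was Sall1, a transcription factor of resident microglia, at 49.6 to 57.5 CPM against 39.04 to 41.00 CPM (-0.43 ± 0.07). The chemokine gene Ccl3 went from 0.259 to 0.453 CPM to 9.09, 19.6 and 16.5 CPM (5.44 ± 0.37) and the cytokine gene Il1b from 0.0777 to 0.2498 CPM to 5.91, 10.5 and 7.201 CPM (5.72 ± 0.39). The 2 falls among cytokines, Il18 (-0.43 ± 0.11) and Cx3cl1 (-0.20 ± 0.06), lost their calls with a term for Xist and without control 1 or cKO3, Il18 also without control 2, and Cx3cl1 also without control 3 or cKO2. Of 17 complement genes 14 rose (82.4%, beside 17.7% of all tested genes). Among them was the receptor C3ar1, from 1.94 to 2.49 CPM to 14.7, 30.3 and 24.9 CPM (3.41 ± 0.27).

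Among oligodendrocyte markers Ermn, a cytoskeletal protein of myelin, went from 408, 379 and 399.7 CPM to 107, 76.4 and 83.6 CPM (-2.15 ± 0.12), and Aspa, which releases acetate for lipid synthesis, from 58.6 to 60.9 CPM to 16.9, 11.9 and 12.6 CPM (-2.11 ± 0.13). Sqle, an enzyme of cholesterol synthesis, was level over the cKO libraries, at 123.4 to 124.7 CPM against 64.1, 67.7 and 65.3 CPM (-0.91 ± 0.05). Among the astrocyte markers the 2 rises with the smallest p, Vim and Cd109, are known from reactive astrocytes. The list was not split into reactive and other markers. Vim, an intermediate filament, went from 104 to 119 CPM to 378, 646 and 602 CPM (2.26 ± 0.19). Cd109, a surface protein, went from 4.63 to 5.81 CPM to 29.7 to 36.1 CPM (2.68 ± 0.13). The falls included the sodium pump subunit Atp1b2, at 1159.7 to 1316 CPM against 813, 553 and 662 CPM (-0.87 ± 0.13), and the growth factor receptor Fgfr3 (-1.20 ± 0.18).

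**Figure D2:**
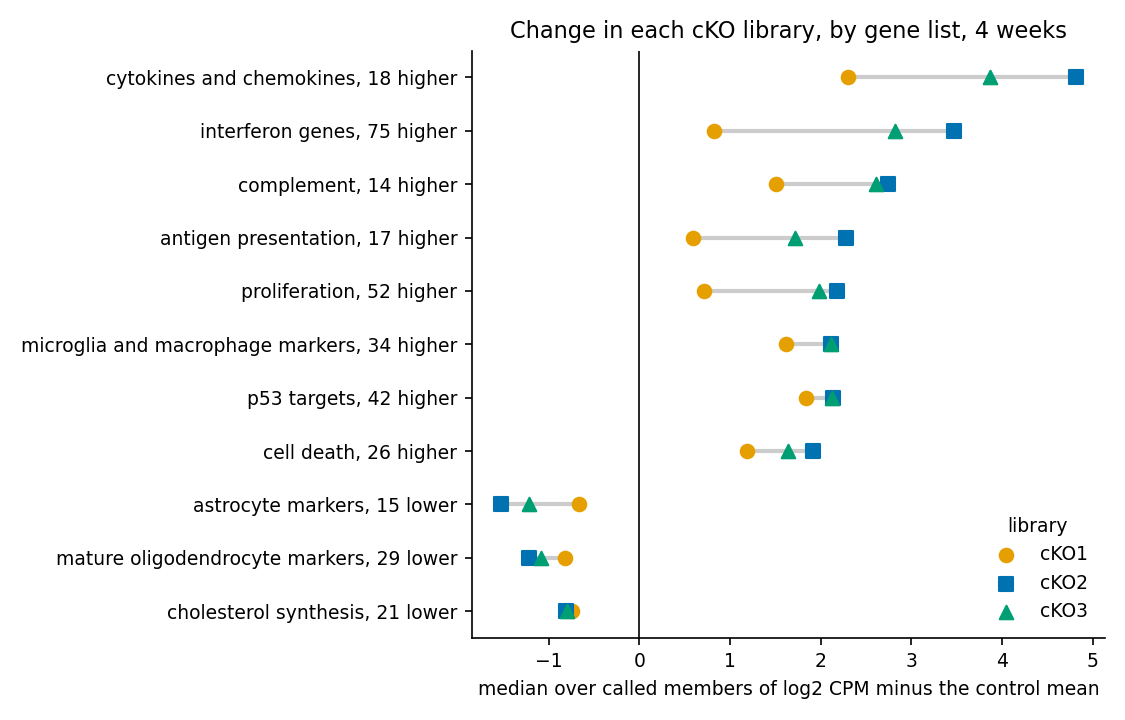
Median over the called members of a gene list of log2 CPM minus the control mean (x axis) in cKO1, cKO2 and cKO3 (colour and shape), for 8 lists of risen and 3 of fallen members (y axis, with the number of called members). The points of the 42 p53 targets lie at 1.84 to 2.14, and those of the 75 interferon genes spread from 0.83 in cKO1 to 3.47 in cKO2.

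Genes of the SMN complex and of the spliceosomal proteins it handles mostly rose or were not called, by small amounts. Of 25 tested genes 12 rose (48.0%, beside 17.7% of all tested genes), 1 fell and 12 did not pass the test, and the risen members had median changes of 0.36, 0.51 and 0.50 in cKO1, cKO2 and cKO3. Snrpc, a protein of the U1 particle, was at 22.2, 21.8 and 19.1 CPM in the controls and at 31.7, 33.8 and 36.6 CPM in the cKO libraries (0.69 ± 0.09), and the Sm protein genes Snrpg (0.75), Snrpb (0.60) and Snrpd1 (0.54) rose as well. Smn1 rose (0.40), while Gemin5 (0.05) and Gemin4 (0.15) were not called. Snrpa1, of the U2 particle, went from 23.1 to 26.7 CPM to 38.8, 44.8 and 40.3 CPM (0.72 ± 0.09). The fall was that of Wdr77 (-0.22), a partner of the methyltransferase that modifies Sm proteins, and its call was lost with a term for Xist and without control 2, control 3, cKO2 or cKO3.

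Genes of cell death and of the integrated stress response are given next, beside 17.7% higher and 15.9% lower over all tested genes. Of 27 cell death genes 26 rose and none fell, with medians of 1.19, 1.92 and 1.64. Bax, which permeabilises mitochondria and is a p53 target, went from 29.6, 28.1 and 26.1 CPM to 81.9, 86.4 and 88.5 CPM (1.61 ± 0.07), and the death receptor gene Fas from 2.99, 3.22 and 4.09 CPM to 20.8, 26.0 and 25.4 CPM (2.81 ± 0.16). Of 26 genes of the integrated stress response 11 rose (42.3%) and 3 fell, with medians of the risen members of 1.43, 1.96 and 1.62 and a median log2 fold change over all members of 0.26. Sesn2, a stress protein that restrains mTORC1, went from 18.8 to 21.3 CPM to 73.97, 82.4 and 85.4 CPM (2.02 ± 0.08). Gdf15, a secreted stress cytokine that is also a p53 target, had the largest change of these, from 0.201, 0.125 and 0.181 CPM to 95.3, 182 and 173 CPM (9.74 ± 0.39, edgeR adjusted p 4.2e-06). The serine synthesis enzymes Psat1 (-1.11 ± 0.10) and Phgdh (-0.73 ± 0.12), which this response can induce, fell.

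Other cell types of the cord and its surroundings follow. Of 21 markers of oligodendrocyte progenitors 5 rose (23.8%) and 4 fell (19.05%), shares near the 17.7% and 15.9% over all tested genes. Cspg4, the proteoglycan NG2, went from 21.1 to 24.5 CPM to 44.6, 54.3 and 55.2 CPM (1.15 ± 0.10), and the lineage factor Olig1 fell from 351 to 379 CPM to 263, 209 and 229.6 CPM (-0.63 ± 0.09). Matn4, a matrix protein, also rose (1.88 ± 0.19), and Ptprz1, a receptor phosphatase, fell (-0.55 ± 0.10). Of 25 neuron markers 1 rose and 11 fell, the falls including the glutamate transporter gene Slc17a6 (-0.45 ± 0.07) and the GABA synthesis gene Gad2 (-0.57 ± 0.10), and the calls of both were lost with a term for Xist. The rise was that of Prph (0.45 ± 0.12), a neurofilament-like protein, lost with a term for Xist and without control 1, control 3, cKO2 or cKO3. Schwann cell genes fell in 3 of 11 and rose in 1. Of these, the myelin protein gene Pmp22 (-0.57 ± 0.14) lost its call without control 2 or control 3. Fxyd1, a regulator of the sodium pump (-0.54 ± 0.14), lost it with a term for Xist and without control 1, control 2 or cKO3. Egr2, a myelination factor (1.09 ± 0.30), lost it with a term for Xist and without any 1 library other than cKO1. Endothelial and pericyte genes fell in 4 of 16, among them the efflux pump gene Abcb1a (-0.47 ± 0.10) and the lipid transporter gene Mfsd2a (-0.84 ± 0.20), the latter lost without control 3. Ependymal markers rose in 4 of 12, among them Foxj1, the master factor of motile cilia, from 33.0, 35.8 and 37.4 CPM to 93.6, 80.3 and 78.5 CPM (1.25 ± 0.09). Rarres2, which encodes chemerin and shares exon sequence with Lrrc61, went from 7.29 to 8.97 CPM to 15.99, 18.2 and 15.6 CPM (1.01 ± 0.12).

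Rises were also sorted by how level they were. Of the called rises of at least 2-fold, the 265 with the lowest range of log2 CPM over the 3 cKO libraries (at most 0.38) are called even here and the 265 with the highest range (at least 1.45) uneven. The median change of the even rises was 1.43 in cKO1, 1.496 in cKO2 and 1.48 in cKO3, and that of the uneven rises was 1.06, 3.28 and 2.82. Both groups were picked by these values, so they are described and not tested. Each group is 265 of 1323 such rises and of 17060 tested genes. The even rises held 22 of 52 tested p53 targets, 5 of 41 collagens, 6 of 285 solute carriers and 3 of 77 DNA repair genes. Among the uneven rises stood none, none, 1 and none of these. The uneven rises held 70 of 80 interferon genes, 22 of 67 proliferation genes, 9 of 22 cytokines and 6 of 20 antigen presentation genes. Of these the even rises held none, 1, none and none. Other lists stood in both groups. Of 27 cell death genes 5 were even and 5 uneven, and of 26 integrated stress response genes 2 and 2. Of 43 microglia and macrophage markers 4 were even and 2 uneven.

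Among genes of at least moderate abundance the rise with the smallest range was that of Ddit4l, an inhibitor of the growth kinase complex mTORC1 that is counted among p53 targets. It was at 14.2, 9.21 and 10.3 CPM in the controls and at 46.7, 46.4 and 46.4 CPM in cKO1, cKO2 and cKO3 (log2 fold change 2.05 ± 0.15). P2rx7, an ATP-gated ion channel of microglia, went from 17.3, 19.4 and 17.0 CPM to 51.3, 50.8 and 51.4 CPM (1.52 ± 0.07). Cd151, a tetraspanin that binds integrins, went from 44.9, 48.6 and 44.7 CPM to 109, 106 and 107 CPM (1.22 ± 0.06). In these 3 genes the cKO libraries were closer to each other than the controls were. The genes were chosen for a narrow range over the cKO libraries, so the choice itself favours this difference. Plekha7, a protein of adherens junctions, stood at 13.5 to 14.8 CPM in controls and 50.8 to 52.2 CPM in cKO libraries. Fbxl12, a substrate adaptor of a ubiquitin ligase, stood at 12.5 to 14.4 and 26.4 to 26.8 CPM and shares exon sequence with Ubl5, which was not called (0.12). Gtse1, a p53 target that binds microtubules, was almost as level at a much larger change: 1.31, 0.905 and 0.907 CPM in the controls and 39.2, 44.0 and 42.8 CPM in the cKO libraries (5.32 ± 0.15, edgeR adjusted p 2.7e-06).

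The 4 falls with the smallest range were these. Opalin, a membrane protein of oligodendrocytes, was at 57.2, 66.2 and 45.4 CPM in the controls and at 27.6, 27.0 and 26.5 CPM in the cKO libraries (-1.06 ± 0.13). Hmgcs1, an early enzyme of cholesterol synthesis, was at 539, 564 and 552 CPM against 251, 240 and 250 CPM (-1.16 ± 0.06). Sez6l2, a membrane protein studied mostly in neurons, was at 612, 668 and 656 CPM against 285, 264 and 277 CPM (-1.23 ± 0.06). Separation from all controls and a narrow range over the cKO libraries were conditions by which these genes were chosen. Smim5, a small membrane protein, fell from 3.58 to 4.65 CPM to 1.12 to 1.17 CPM.

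The uneven rises named by their range were chemokines and interferon-stimulated genes, and in each of them cKO1 was far below cKO2 and cKO3. It lay above all controls for Rsad2, Oasl1 and Ccl2 and not for Apol9a, Ccl11 and Ccl7. Rsad2, which encodes the antiviral enzyme viperin, was at 1.41, 1.37 and 1.71 CPM in the controls and at 2.82, 62.5 and 25.9 CPM in cKO1, cKO2 and cKO3. Oasl1, an antiviral protein related to oligoadenylate synthetases, was at 0.503, 0.406 and 0.181 CPM and then at 0.815, 24.0 and 12.002 CPM. Apol9a, an apolipoprotein L gene, was at 0.805, 0.749 and 0.829 CPM and then at 0.612, 32.5 and 14.8 CPM, so that cKO1 lay below all controls. Reads of Apol9a and of its near copy Apol9b (3.76) may have been split between them. Among the chemokines, Ccl2 (a monocyte attractant) was at 0.104 to 0.428 CPM in controls and at 0.990, 26.5 and 14.6 CPM in the cKO libraries. Ccl11 (an eosinophil attractant) was at 0.0754 to 0.531 CPM and at 0.233, 13.4 and 5.65 CPM, and Ccl7 at 0.0259 to 0.593 CPM and at 0.291, 10.4 and 3.71 CPM. For Ccl11 and Ccl7 cKO1 lay inside the control range, and in all 6 genes cKO2 was above cKO3. The calls of these 6 genes, at edgeR adjusted p of 0.0075 to 0.028, were lost with limma-voom (adjusted p 0.18 to 0.30) and with a robust estimate of the spread (0.053 to 0.11). With a term for Xist they were lost for Apol9a (0.071), Ccl11 (0.091) and Ccl7 (0.12). The calls of Apol9a and Ccl11 were also lost without any 1 control, that of Ccl7 without control 1 or control 3, and those of Ccl11 and Ccl7 without cKO2.

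**Figure D3:**
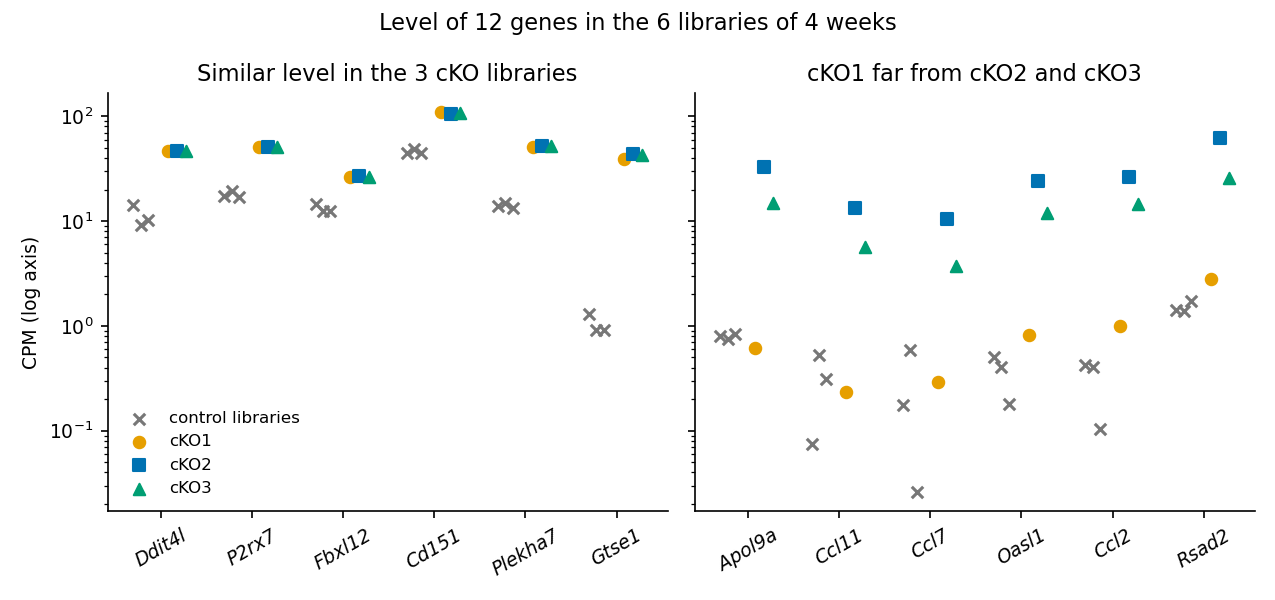
CPM on a log axis (y) of 12 genes (x) in the 3 control libraries (crosses) and in cKO1, cKO2 and cKO3 (circle, square, triangle). On the left the 3 cKO libraries lie close together, as for Ddit4l at 46.4 to 46.7 CPM. On the right cKO1 lies far below cKO2 and cKO3, as for Rsad2 at 2.82 against 62.5 and 25.9 CPM. There cKO1 lies above all controls for Rsad2, Oasl1 and Ccl2 and not for Apol9a, Ccl11 and Ccl7.

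The start regions of 4 of these genes are shown because letters known from p53 targets or from interferon-stimulated genes stand in them. Each run is the 150 bases before a RefSeq start site, read 5′ to 3′ on the gene's strand in build GRCm38.p6, with the matched letters in capitals. The first pair are even rises, with a match to the p53 half-site, 90 bases before the start for Ddit4l and 50 bases for Cd151, where 1 of 2 windows holds it. The second pair are uneven rises, with matches to the core of the interferon-stimulated element (GAAA, any 2 bases, then GAAA), which here read on the other strand. In Apol9a these are 2 overlapping matches that begin 59 and 53 bases before the start, and in Rsad2 it is 1 match that begins 120 bases before it.
Ddit4l, chr3:137623522-137623671, plus strand: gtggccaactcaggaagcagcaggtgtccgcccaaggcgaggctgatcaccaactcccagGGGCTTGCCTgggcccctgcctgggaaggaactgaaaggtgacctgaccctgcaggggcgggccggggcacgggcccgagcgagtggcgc
Cd151, chr7:141467212-141467361, plus strand: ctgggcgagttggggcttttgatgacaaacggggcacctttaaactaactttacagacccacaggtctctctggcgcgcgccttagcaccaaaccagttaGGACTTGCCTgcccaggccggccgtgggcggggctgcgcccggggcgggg
Apol9a, chr15:77411081-77411230, minus strand: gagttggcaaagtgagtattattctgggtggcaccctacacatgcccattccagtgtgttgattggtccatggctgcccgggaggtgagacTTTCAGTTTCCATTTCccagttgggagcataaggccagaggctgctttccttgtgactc
Rsad2, chr12:26456453-26456602, minus strand: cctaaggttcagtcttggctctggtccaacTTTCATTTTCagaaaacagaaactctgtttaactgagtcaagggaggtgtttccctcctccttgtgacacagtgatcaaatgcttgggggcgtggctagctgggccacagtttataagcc

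Matches were counted on both strands of windows from 250 bases before to 50 bases after a start. In all 32851 windows of the table the p53 half-site was met in 8.36% and the interferon core in 3.44%. A window was found for 35 of the 42 risen p53 targets, and 14 of these 35 (40.0%) held the p53 half-site. They were listed as known p53 targets, and only 12377 of the 17060 tested autosomal genes (72.5%) have a window, so this share is a description and is compared with no other set of genes. For the uneven rises a window was found for 192 of 265 (72.5%), of which 54 held the interferon core, and for the even rises for 203 of 265 (76.6%), of which 30 held the p53 half-site. For the risen interferon genes it was found for 57 of 75 (76.0%). With fewer than 80% of their genes matched, the check is void for these last 3 groups, and no share is compared. Among named genes, no match to the motif of their group stood in the windows of P2rx7, Fbxl12 or Oasl1. A match describes letters and is not evidence of binding.

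Outside the marker lists, the largest rises were of genes hardly seen in control cord. Bglap2, one of the osteocalcin genes of bone matrix, was at 0.226, 0.219 and 0.0518 CPM in the controls and at 41.8, 50.4 and 51.6 CPM in the cKO libraries (log2 fold change 8.17 ± 0.26, edgeR adjusted p 2.8e-06). Its neighbour Bglap was at 0.0503 to 0.156 CPM and then at 7.51, 17.1 and 17.9 CPM (7.37 ± 0.52). The osteocalcin genes are close copies in a row, so reads may have been split between them. Gjb5, a connexin of epithelia, was at 0 to 0.126 CPM in the controls and at 12.8, 17.0 and 17.1 CPM in the cKO libraries (7.53 ± 0.40). Sgca, a sarcoglycan of the muscle membrane, was at 0.250 to 0.363 CPM and then at 16.2, 26.9 and 24.9 CPM (6.23 ± 0.27), next to Col1a1, which was not called (-0.02). These 4 genes were high in all cKO libraries, with cKO1 lowest in each.

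Another 3 of the largest rises rest on 2 or 3 reads in all controls together, so a ratio of counts is given with its 95% exact interval for counting error. Spaca3, a lysozyme-like protein of sperm, had 2 counts in the controls and 500 in the cKO libraries, a ratio of 250.3 (68.9 to 2072). Ltb4r2, a leukotriene B4 receptor, had 3 and 505 counts (ratio 169, interval 57.3 to 820), and its neighbour Ltb4r1 rose too (5.63). Hist1h4a, a histone H4 gene, had 3 and 471 counts (ratio 157, interval 53.5 to 765), with 127, 167 and 177 counts in cKO1, cKO2 and cKO3. Histone H4 is made from many near-identical genes, so its reads are uncertain.

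In the rest of the largest rises cKO1 lagged more. Lilrb4a, an inhibitory receptor of myeloid cells that shares exon sequence with Lilr4b (4.21), was at 0, 0.156 and 0 CPM in the controls and at 4.40, 23.04 and 13.5 CPM in the cKO libraries (8.12 ± 0.97). Tgm1, a transglutaminase known from skin, went from 0.0518 to 0.101 CPM to 3.49, 13.5 and 17.5 CPM (7.25 ± 0.77). Fosl1, which encodes the AP-1 subunit Fra-1, went from 0.0259 to 0.377 CPM to 6.49, 23.5 and 21.8 CPM (6.63 ± 0.73). It overlaps an exon of Ccdc85b on the other strand, which was not called (-0.02). In these genes all cKO libraries lay above all controls, which was a condition of their choice.

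The largest falls outside the lists were smaller in log2 size than the largest rises. Dao, the D-amino acid oxidase, was at 20.1, 20.5 and 19.3 CPM in the controls and at 4.43, 0.714 and 1.53 CPM in cKO1, cKO2 and cKO3 (-3.18 ± 0.51, edgeR adjusted p 0.0027). It also had the widest range of any named fall. Car14, a membrane-bound carbonic anhydrase, was at 75.2, 96.6 and 76.3 CPM and then at 27.3, 13.0 and 18.9 CPM (-2.07 ± 0.24). It overlaps Aph1a on the other strand, which was not called (-0.09). Abca8a, a lipid transporter of the ABC family, was at 13.7 to 14.3 CPM and then at 5.50, 3.24 and 1.88 CPM (-1.98 ± 0.32), while its neighbours Abca8b (-0.08) and Abca9 (0.05) were not called. Ccdc187, a coiled-coil protein, was level over the cKO libraries at 4.51, 4.72 and 4.88 CPM against 13.8 to 24.9 CPM (-2.02 ± 0.21).

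The other falls of this rule were Calr4 (a calreticulin, -2.34 ± 0.43), Fam205a1 (-2.11 ± 0.34), Tll2 (a tolloid-like metalloprotease, -2.07 ± 0.27), Ppp1r3g (a glycogen-targeting phosphatase subunit, -2.06 ± 0.32), Sgk2 (a serine/threonine kinase, -1.99 ± 0.25) and Smyd1 (a lysine methyltransferase of muscle, -1.93 ± 0.39). Tll2 lies beside Opalin on the same strand, with no shared exon. Smyd1 was at 12.7, 12.8 and 13.5 CPM in the controls and at 5.82, 1.56 and 2.92 CPM in cKO1, cKO2 and cKO3, and its call was lost with a term for Xist (adjusted p 0.060). Mc5r, a melanocortin receptor, was among the least even falls, at 6.34 to 6.62 CPM in the controls and 3.47, 1.43 and 0.927 CPM in the cKO libraries (-1.74 ± 0.41). In these genes too cKO1 was mostly the highest of the cKO libraries.

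**Figure D4:**
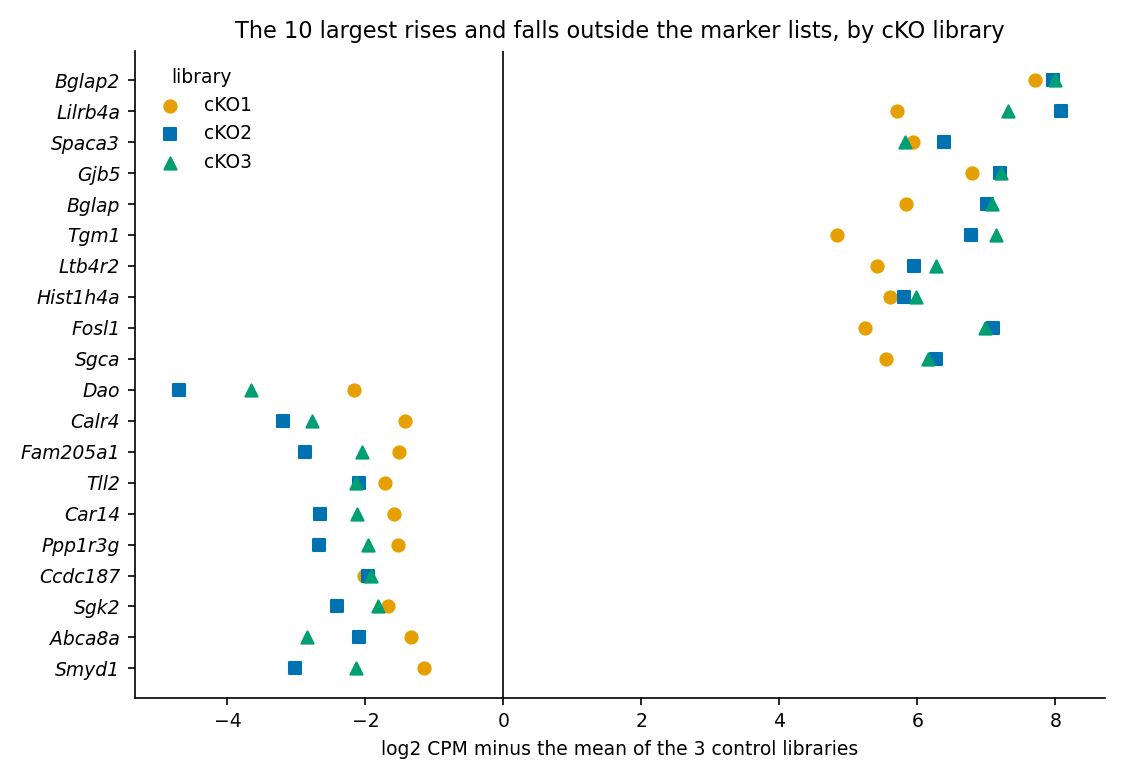
log2 CPM minus the control mean (x axis) in cKO1, cKO2 and cKO3 (colour and shape) for the 10 largest called rises and the 10 largest called falls outside the marker lists (y axis). Points of Bglap2 lie close together while those of Lilrb4a and Dao are spread, with cKO1 nearest to 0.

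Families of genes outside those lists were counted next, beside 17.7% higher and 15.9% lower over all tested genes. The largest share of rises was in C-type lectins and Siglecs, receptors of myeloid cells for sugars, with 12 of 21 higher (57.1%) and 2 lower. Clec7a, which binds fungal glucans, was at 1.51, 1.12 and 0.803 CPM in the controls and at 28.3, 62.4 and 50.7 CPM in the cKO libraries (5.36 ± 0.35), and Cd22, an inhibitory Siglec, went from 0.181 to 0.352 CPM to 2.50, 5.49 and 5.10 CPM (4.15 ± 0.41). The 2 falls were Clec14a (-0.74), of endothelium, and Clec16a (-0.39), of endosomal traffic, and both calls were lost with a term for Xist, that of Clec14a also without control 1, control 2, cKO2 or cKO3. Annexins, S100 proteins and galectins, which bind calcium, membranes or sugars, followed with 13 of 27 higher (48.1%) and 1 lower, Lgals4 (-1.53). Lgals3, a galectin of phagocytes, was at 4.28, 7.90 and 6.25 CPM and then at 38.3, 54.1 and 53.3 CPM (2.99 ± 0.23), and S100a6 went from 23.1 to 29.3 CPM to 67.5, 97.3 and 88.0 CPM (1.71 ± 0.14). Beside these counts, the summed microglia and macrophage markers went from 4893 to 5039 CPM in the controls to 10296 to 12612 CPM in the cKO libraries, and the part of that in each family was not tested.

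Genes of actin assembly and motility rose in 25 of 59 (42.4%) and fell in 6. In 25 of the 25 rises cKO1 had the smallest change, beside 72.8% of all rises, with medians of 0.33, 0.89 and 0.67. The members with the lowest p were Myo1f, a myosin of leukocytes (4.05, 4.59 and 3.91 CPM against 15.2, 22.4 and 21.5 CPM, 2.24 ± 0.17), and Flnc, a filamin (27.6, 28.0 and 25.2 CPM against 56.8, 82.7 and 77.6 CPM, 1.43 ± 0.13). Falls included Myo1d, a myosin of myelinating cells, at 84.0 to 91.8 CPM in controls and 33.0 to 47.7 CPM in cKO libraries (-1.16 ± 0.13), and Wasf3 (-0.59 ± 0.10). Integrins, the receptors for extracellular matrix, rose in 11 of 28 (39.3%) and fell in 2. Itgax, the CD11c chain of activated microglia, went from 0.201, 0.562 and 0.363 CPM to 18.1, 34.95 and 30.9 CPM (6.25 ± 0.37). Itgb5 went from 70.9 to 74.8 CPM to 158, 148 and 158 CPM (1.08 ± 0.06). Itgb4, a laminin receptor chain, fell from 82.2 to 93.1 CPM to 34.9, 33.7 and 28.3 CPM (-1.44 ± 0.09), and the other fall was Itgb3 (-0.66 ± 0.18), whose call was lost with a term for Xist and without control 1, control 2 or cKO2.

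Tetraspanins, which organise membrane domains, moved both ways, with 9 of 23 higher (39.1%) and 8 lower. Beside Cd151, Cd9 rose from 78.9, 80.1 and 73.9 CPM to 169, 242 and 237 CPM (1.47 ± 0.13). Tspan2, an oligodendrocyte tetraspanin, fell from 291, 305 and 307 CPM to 179, 136 and 154 CPM (-0.94 ± 0.10), and Tspan9 from 96.3 to 101 CPM to 51.8 to 60.0 CPM (-0.80 ± 0.07). Of the Hippo pathway, which sets organ growth through the cofactors Yap and Taz, 9 of 22 genes rose (40.9%) and 1 fell, Amotl2 (-0.27), whose call was lost without any 1 library other than cKO1. The transcription factor Tead1, partner of Yap, was at 17.8, 18.7 and 20.1 CPM in the controls and at 32.0, 36.6 and 33.3 CPM in the cKO libraries (0.85 ± 0.09). Smaller rises were seen for the cofactor genes Yap1 (0.38) and Wwtr1 (0.47), for the kinase adaptor Mob1a (0.56) and for Tead3 (1.41).

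Factors of ribosome biogenesis rose in 29 of 71 (40.8%) and fell in 2, mostly by little: the median change of the risen members was 0.31, 0.54 and 0.44. Nop53, needed for the large subunit, was at 85.1, 87.6 and 82.9 CPM in the controls and at 159, 155 and 151 CPM in the cKO libraries (0.87 ± 0.05), and Npm1, the nucleolar chaperone, went from 131 to 136 CPM to 192 to 200.1 CPM (0.55 ± 0.05). Utp14b fell (-1.09 ± 0.11), and it shares exon sequence with Acsl3, a fatty acid ligase that fell too (-0.86), so their reads cannot be told apart. The other fall was Nol4 (-0.45), whose call was lost with a term for Xist and without control 1, control 3, cKO2 or cKO3. Among long noncoding RNA genes with names 15 of 41 rose (36.6%) and 6 fell. Of these, Snhg15 (2.23), Snhg5 (1.05 ± 0.12), Snhg20 (0.92) and Snhg10 (0.91) host small nucleolar RNAs in their introns, and Pvt1 went from 10.3 to 12.4 CPM to 22.6, 26.5 and 27.3 CPM (1.18 ± 0.11). Neat1, the scaffold of paraspeckles, was lower, at 612, 643 and 389 CPM in the controls and 249, 291 and 264 CPM in the cKO libraries (-1.03 ± 0.17), and so was Sox2ot (-0.79 ± 0.13).

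**Figure D5:**
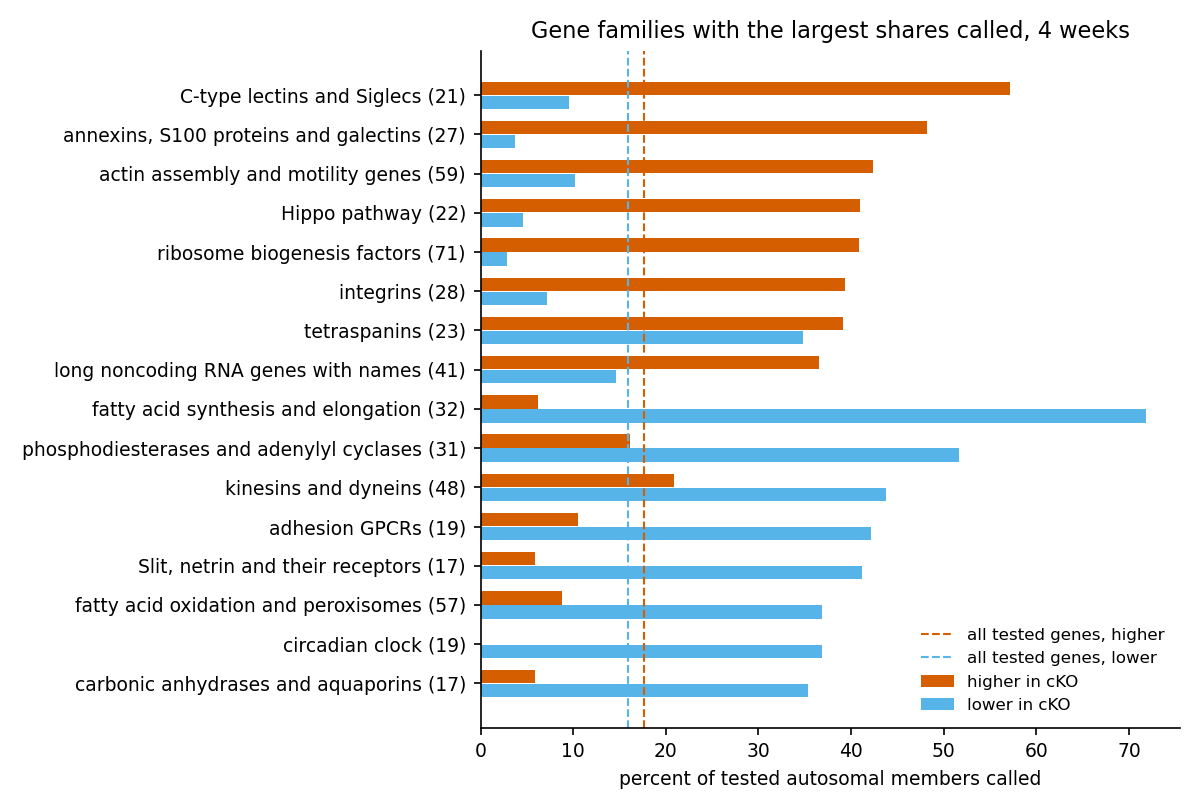
Percent of tested autosomal members (x axis) called higher or lower in cKO libraries for the 16 families with the largest shares (y axis, number of tested members in brackets), with dashed lines at the shares over all tested genes, 17.7% and 15.9%. C-type lectins and Siglecs reach 57.1% higher, and fatty acid synthesis and elongation reaches 71.9% lower.

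The family with the most falls by share was fatty acid synthesis and elongation, which supplies the acyl chains of myelin lipids, with 23 of 32 lower (71.9%) and 2 higher. Fads6, a fatty acid desaturase, was at 73.3, 71.3 and 79.7 CPM in the controls and at 40.0, 32.5 and 30.9 CPM in the cKO libraries (-1.12 ± 0.10), and Acsl6, an acyl-CoA ligase, at 325, 329 and 359 CPM against 212, 189 and 190 CPM (-0.78 ± 0.07). The fatty acid synthase gene Fasn (-0.71) and the stearoyl-CoA desaturases Scd1 (-1.30) and Scd2 (-1.04) fell as well. The exceptions were Hacd4 (1.30 ± 0.23), whose call was lost with a term for Xist (adjusted p 0.065), and Acsl5 (0.31 ± 0.09), whose call was lost with that term and without any 1 library other than cKO1. The median of the fallen members was -0.37 in cKO1, -0.74 in cKO2 and -0.73 in cKO3, and the difference from cholesterol synthesis was not tested. Genes of fatty acid oxidation and peroxisomes fell in 21 of 57 (36.8%) and rose in 5. Phyh, a peroxisomal hydroxylase of branched fatty acids, went from 98.3 to 109 CPM to 56.5 to 62.7 CPM (-0.79 ± 0.07). Acaa1b, a thiolase, rose from 0.704, 1.06 and 0.933 CPM to 5.68, 5.72 and 6.93 CPM (2.77 ± 0.21), while its paralog Acaa1a fell (-0.53 ± 0.07), and reads may be split between such copies. Cpt1c, a carnitine palmitoyltransferase of neurons, rose from 54.5 to 61.1 CPM to 113 to 132 CPM (1.09 ± 0.07).

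Phosphodiesterases and adenylyl cyclases, most of which break down or make cyclic nucleotides, fell in 16 of 31 (51.6%) and rose in 5. Pde8a, a cyclic AMP phosphodiesterase, was at 51.6, 54.6 and 48.8 CPM in the controls and at 19.3, 15.7 and 14.4 CPM in the cKO libraries (-1.65 ± 0.11). Adcy5 fell (-0.49 ± 0.07), and the rises included Adcy7 (0.58 ± 0.10) and Adcy6 (0.44 ± 0.06). Kinesins and dyneins, the motors of microtubules, fell in 21 of 48 (43.8%) and rose in 10. The falls included transport motors such as the dynein light intermediate chain Dync1li2 (447, 433 and 451 CPM against 316, 283 and 279 CPM, -0.60 ± 0.07), Kif1b (-0.59) and Kif21b (-0.42 ± 0.06). Of the 10 rises 9 were kinesins of the mitotic spindle or of cell division, among them Kif18b (3.23 ± 0.54), Kif2c (2.80) Kif15 (1.94) and Kif20b (1.59 ± 0.34, lost with a term for Xist), and the other was the light chain Klc4 (0.22). Beside the mitotic kinesins the proliferation list rose in 52 of 67.

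Adhesion GPCRs, receptors with a long extracellular part, fell in 8 of 19 (42.1%) and rose in 2. Adgrg1 (GPR56), which acts in oligodendrocyte progenitors and astrocytes, was at 132, 131 and 129 CPM in the controls and at 94.9, 68.8 and 78.8 CPM in the cKO libraries (-0.69 ± 0.11). Adgrl1, a latrophilin of synapses, fell too (-0.40 ± 0.07), a call lost with a term for Xist. The rises were Adgre1, the macrophage antigen F4/80 (1.72 ± 0.20), and Adgre5 (0.80 ± 0.13). Slit, netrin and their receptors, which guide axons, fell in 7 of 17 (41.2%), by -0.32 (Slit1) to -0.53 (Unc5b). The smallest p were those of Robo2 (-0.52 ± 0.10) and Unc5a (-0.36 ± 0.08), the latter lost with a term for Xist, and the exception was Robo3, at 1.74, 1.25 and 1.09 CPM in the controls and 4.34, 8.55 and 7.20 CPM in the cKO libraries (2.30 ± 0.30). Genes of the circadian clock fell in 7 of 19 (36.8%) and rose in none, led by the output factor Hlf at 53.9 to 58.1 CPM against 35.6, 29.2 and 29.1 CPM (-0.84 ± 0.09) and by the nuclear receptor Rorb (-0.75 ± 0.11). The hour of collection is not given in the labels, and its part in the clock genes was not tested. Carbonic anhydrases and aquaporins fell in 6 of 17 (35.3%) and rose in 1, Car13 (0.48 ± 0.15), whose call was lost with a term for Xist and without control 1, control 2, cKO2 or cKO3. Beside Car14, Car2, the carbonic anhydrase of oligodendrocytes, went from 568, 556 and 546 CPM to 333, 240 and 264 CPM (-0.997 ± 0.11), and the water channel of astrocyte endfeet, Aqp4, fell by 0.72.

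In the other 31 families the share higher ran from 5.15% to 36.0% and the share lower from 0% to 35.1%. The summed oligodendrocyte and astrocyte markers were lower in cKO libraries beside the falls in lipid genes and Car2: for astrocytes the sum was 15124 to 16225 CPM in the controls and 8639 to 12163 CPM in the cKO libraries. Their part in these falls was not tested.

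Markers of sensory ganglia, muscle, blood and meninges were examined as tissues that lie next to the cord. Of 9 tested genes of sensory ganglion neurons 2 rose (22.2%), 1 fell (11.1%) and 6 did not pass the test. These shares are near the 17.7% higher and 15.9% lower over all tested genes. Avil, an actin-binding protein of sensory neurons, was at 0.327, 0.343 and 0.752 CPM in the controls and at 15.8, 23.8 and 21.6 CPM in the cKO libraries (5.404 ± 0.31, edgeR adjusted p 2.1e-05). Trpv1, the capsaicin receptor, went from 0.0251, 0.219 and 0.0777 CPM to 2.94, 4.34 and 4.66 CPM (5.25 ± 0.49). The other genes that mark these neurons were not called higher: Calca, a neuropeptide precursor, was at 28.4 to 66.0 CPM in the controls and 40.6 to 61.7 CPM in the cKO libraries, and P2rx3, an ATP receptor of nociceptors, at 1.23 to 1.503 and 1.40 to 1.58 CPM. The fall was that of Prrxl1 (-0.45), whose call was lost with a term for Xist and without control 1, control 2 or cKO2, and the summed list lay at 65 to 103 CPM in the controls and at 87 to 118 CPM in the cKO libraries.

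Of 11 skeletal muscle genes 1 rose (9.09%, beside 17.7% of all tested genes), Pvalb, a calcium buffer also found in neurons (0.42 ± 0.07). The median change over the 11 genes was -0.18 in cKO1, 0.27 in cKO2 and 3.04 in cKO3. Ckm, the muscle creatine kinase, was at 0.126, 1.94 and 0.337 CPM in the controls and at 0.495, 1.61 and 7.17 CPM in cKO1, cKO2 and cKO3, so that cKO3 stood above the other 5 libraries. The part of muscle RNA in other values of cKO3 was not tested.

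Blood and meninges separated single libraries rather than groups. The haemoglobin gene Hbb-bs was at 90.6, 120 and 54.1 CPM in the controls and at 143, 34.8 and 28.0 CPM in cKO1, cKO2 and cKO3, and the 4 globin genes were those in which cKO1 lay farthest above both other cKO libraries. None of the 10 tested blood genes was called. The meningeal prostaglandin synthase gene Ptgds was at 753, 1286 and 1476 CPM in the controls, at 1521 and 1111 CPM in cKO1 and cKO2, and at 103 CPM in cKO3. The 13 meningeal and fibroblast markers summed to 966 to 1845 CPM in the controls, 1869 in cKO1, 1550 in cKO2 and 249 in cKO3, and none was called. The blood markers summed to 132 to 296 CPM in the controls, 326 in cKO1, 99.5 in cKO2 and 69.6 in cKO3. The part of blood and meninges in the distance of cKO1 was not tested.

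At 4.5 weeks, in other mice with their own controls, 34.7% of the 16754 autosomal genes tested at both times were higher in cKO libraries and 35.1% lower. Of 2979 genes that rose at 4 weeks 2534 (85.1%) also rose at 4.5 weeks and 101 (3.39%) fell; of 2715 that fell, 2200 (81.0%) fell again and 166 (6.11%) rose. Genes called in each cKO library alone at 4 weeks were called the same way in 1137 of 1204 rises (94.4%) and 506 of 578 falls (87.5%). For those called in cKO2 alone and in cKO3 alone and not in cKO1 the numbers were 756 of 853 (88.6%) and 618 of 761 (81.2%). The former also had the larger median change at 4 weeks, 1.47 against 0.74 for rises and -0.78 against -0.44 for falls, and the difference in shares was not tested.

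The size of the change often differed between the times. In a model of the 12 libraries the effect at 4.5 weeks differed from that at 4 weeks in 43.0% of tested autosomal genes; among the rises of 4 weeks 1062 (35.2%) were farther from control at 4.5 weeks and 386 (12.8%) nearer or reversed. Of the level changes, Opalin went from -1.06 to -3.19 (adjusted p of the difference 1.5e-06), Hmgcs1 from -1.16 to -2.31 (1.6e-06) and P2rx7 from 1.52 to 2.30 (0.00014), while Ddit4l went from 2.05 to 1.07 (0.002). Cd151 (1.22 and 1.11), Plekha7 (1.87 and 1.92) and Fbxl12 (1.01 and 1.19) did not differ by this test. Avil went from 5.404 to -0.10 (0.024) and Trpv1 from 5.25 to 0.79 (0.047). At 4.5 weeks none of the 9 tested sensory ganglion genes was called higher and 6 were lower, beside 35.1% lower over all genes. Of 11 skeletal muscle genes 9 were lower. The part of such neighbouring tissue in the values of Avil and Trpv1 was not tested. Apol9a went from 4.32 to 0.76 (0.043), and no such difference was called for Rsad2 (4.34 and 3.46), Oasl1 (5.07 and 3.69), Ccl2 (5.49 and 6.59), Bglap2 (8.17 and 6.33), Gjb5 (7.53 and 7.65) or Dao (-3.18 and -3.75).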

How the data were processed

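Messenger RNA of whole spinal cord was sequenced in 3 control and 3 Ddx20 cKO mice at 4 weeks after tamoxifen. The authors deposited estimated counts per gene, not scaled by depth or length; STAR, RSEM and mouse build mm39 stand in the submitters' processing notes, without versions. The annotation release and filters are not given in the sources used here. Per the labels' protocols the library kit was TruSeq RNA v2, which does not mark strand, so overlapping genes cannot be told apart. Of the values, 3.25% to 3.59% were not whole. Spreadsheet dates in place of 27 symbols were restored from gene identifiers. Genes without a symbol (6753 of 56953) held 0.337% to 0.519% of counts. Chromosomes came from GENCODE M21 by gene identifier, and 4924 of the 56953 genes had none.

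Counts were rounded and tested with edgeR 4.0.16 in R 4.3.3 (TMM scaling, filterByExpr, quasi-likelihood F test, Benjamini-Hochberg over 18043 genes, called below 0.05). CPM use the TMM-scaled library size. Each cKO library was also fitted alone against the controls, with the spread of the controls; the 4.5-week table was fitted alone, and the difference of effects over 12 libraries. The labels name 3 independent biological replicates per group. Simulated counts with known changes were tested first. Alternatives used limma 3.58.1, DESeq2 1.42.0, other scalings and filters, and leaving out libraries.

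Named genes (autosomal, not provisional, mean log2 CPM of at least 1) were Ddx20; the 10 largest clear rises and falls outside marker lists; the 6 rises and 4 falls with the smallest and with the largest range over cKO libraries; the 4 genes in each direction with cKO1 farthest from both others; and the 2 called members with the smallest p in each direction of lists described. Clear genes were called ones with all 3 cKO libraries outside the range of the 3 controls. Those of the smallest range were also clear and changed at least 2-fold. Other members and neighbours named were chosen after their values were seen. Members of lists that are not described, or given only by a range of shares, are not named, 3 of the 4 globin genes are given as a group, and a further gene is not reported here. A list needed 8 tested members. Families were taken by symbol or by textbook membership, so some members may share only a symbol with their family, such as Pde4dip, Kif1bp or Itgb3bp. The members, lists and tests were chosen with earlier results of these data known. Promoter windows are RefSeq's, build GRCm38.p6, matched by symbol.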

Additional observations from a re-analysis of the deposited data

How the results depend on the processing

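Of 110 alternatives to the counts and shares, 91 left them within 1.5 times or within their spread. Tested against a 1.5-fold change, 1007 genes were higher and 240 lower, and the same numbers also separated in every cKO library; 507 and 83 passed in each cKO library alone. With a term for Xist, 1648 were higher and 1027 lower, of which 1639 and 938 separated. Leaving out 1 library gave 2219 to 3440 higher and 1614 to 3209 lower genes, 2212 to 3438 and 1614 to 3209 of them separated, and 1219 to 1576 and 477 to 1031 called in each cKO library alone; the median share of the mean change reached by cKO1 was 0.828 to 0.838 for rises and 0.799 to 0.810 for falls. The deviations of same-numbered libraries had correlations of -0.091, -0.018 and -0.197, and those of other pairs ran from -0.046 to 0.134. With 3 libraries per group these values cannot tell whether the numbers pair the mice. A replicate block gave 2422 higher and 1939 lower genes. Among 4856 alternatives for 270 named genes, 4548 kept direction and side of the threshold, 304 lost the call, 4 gained it and 0 reversed. Where a call was lost the cause was not tested. Alternatives to scaling kept the median of all genes within 0.1 of 0. Precision is limited by 3 mice per group and by the unequal spread of sex.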
